A study of Danio rerio with 30 samples.

Results

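Gastrulation in zebrafish depends on cells moving as sheets and as single cells, and 2 signalling systems that guide these movements were followed here over the first 8 hours of development. Apela, also called Toddler or Elabela, is a small secreted peptide that acts through the apelin receptors Aplnra and Aplnrb, G protein-coupled receptors, and is known for promoting the inward movement and spreading of mesendodermal cells. Cxcl12a and Cxcl12b are secreted chemokines that act through the receptors Cxcr4a and Cxcr4b. This pair of ligands and receptors is known for tethering the endoderm to the mesoderm during gastrulation and for leading migrating primordial germ cells to their targets.

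The genes described are the 7 rows of the expression tables named apela, aplnra, aplnrb, cxcl12a, cxcl12b, cxcr4a and cxcr4b, of 35117 genes listed, all found in each of 3 profiles. The profiles hold 30 RNA-seq libraries from whole zebrafish embryos (Danio rerio), with 1 library for each condition and time. In the alpha-amanitin poly(A) profile, 12 libraries at intervals of 0.5 h between 2 and 7.5 hours post-fertilization (hpf) came from embryos that had received 200 ng/ul alpha-amanitin as single cells by injection. Alpha-amanitin is a toxin that blocks RNA polymerase II and so the transcription of the zygotic genome. In the wild-type poly(A) profile, 9 hourly libraries from 0 to 8 hpf came from embryos with no treatment, and in the wild-type Ribo-Zero profile 9 libraries at the same hours were made after depletion of ribosomal RNA in place of poly(A) capture. Sets held 25 embryos, and the strain and genotype are not given in the sources used here beyond wild type. The wild-type embryos were not described as injected, so the toxin and the injection cannot be told apart.

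Levels are given in TPM, the share of each library's transcripts that a gene takes after correction for transcript length, scaled to a fixed total, so that levels of different genes can be set side by side. Between 12703 and 14379 genes reached 1 TPM in the alpha-amanitin libraries, 11919 to 16194 in wild-type poly(A) and 14022 to 15024 in Ribo-Zero. The read depth of the libraries is unknown, and no library had a replicate at its own hour. The tests below use neighbouring hours of a profile in place of replicates. Their p-values measure the spread between hours that is left after any term for hour in the fit. Where a gene had the same level in every library of a group, as when it was absent throughout, that group added no spread. Successive hours of a profile are also not independent, and the tests treat them as if they were. In whole embryos, fewer cells that express a gene and less RNA per cell cannot be told apart.

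Zygotic appearance of the ligands in wild-type embryos was followed first. All 3 ligand genes were at or near 0 until 3 hpf and appeared at 4 hpf, and all 3 were at their highest at 8 hpf in both wild-type profiles. The gene for the Aplnr ligand, apela (ENSDARG00000094729), was listed at 0 TPM at 0, 1, 2 and 3 hpf in poly(A) libraries and then at 67.0, 151, 244, 317 and 379 TPM from 4 to 8 hpf. In Ribo-Zero libraries apela stayed at or below 0.08 TPM up to 3 hpf and stood at 44.6, 85.9, 119, 172 and 197 TPM at the following 5 hours. Every hour after 3 hpf was thus higher than the one before in both profiles.

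The chemokine gene cxcl12a (ENSDARG00000037116) was present at 0.47, 0.14, 0.18 and 0.10 TPM from 0 to 3 hpf in poly(A) libraries, and at 3.98, 23.9, 28.8, 32.9 and 52.3 TPM from 4 to 8 hpf. Its Ribo-Zero levels were 0.13 TPM or less up to 3 hpf and 3.39, 10.3, 12.7, 16.9 and 21.2 TPM from 4 to 8 hpf. Its paralog cxcl12b (ENSDARG00000055100) was the slowest of the 7 genes. It was listed at 0 in all 8 wild-type libraries from 0 to 3 hpf, stood at 1.41, 6.45, 6.66, 27.2 and 57.0 TPM from 4 to 8 hpf in poly(A) libraries, and at 0.69, 2.80, 2.86, 14.3 and 28.6 TPM at the same hours in Ribo-Zero libraries. At 6 hpf cxcl12b had reached 11.7% of its highest poly(A) level, where cxcl12a had reached 55.0% and apela 64.5%.

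The 4 receptor genes reached their highest level before the ligands did, at 5 to 7 hpf, and all 4 were lower at 8 hpf than at 7 hpf in both profiles. The highest level of the ligands was at the last hour sampled, so a later peak of theirs would not be seen. The apelin receptor gene aplnra (ENSDARG00000002172) was at 0.05 TPM or less up to 3 hpf in poly(A) libraries and at 7.92, 77.9, 94.8, 104 and 93.6 TPM from 4 to 8 hpf. In Ribo-Zero libraries it was at 0.12 TPM or less up to 3 hpf and at 3.68, 38.6, 50.4, 63.2 and 52.5 TPM thereafter. Between 4 and 5 hpf the TPM of aplnra climbed 9.84-fold in poly(A) and 10.5-fold in Ribo-Zero libraries, and that of aplnrb 1.47-fold and 1.89-fold.

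The second apelin receptor gene, aplnrb (ENSDARG00000036670), was listed at 0 from 0 to 3 hpf in poly(A) libraries and at 46.0, 67.5, 64.6, 107 and 82.4 TPM from 4 to 8 hpf. In Ribo-Zero libraries it had 0.10 TPM at 3 hpf, with 0 at the 3 earlier hours, and 19.0, 35.9, 29.7, 51.8 and 43.2 TPM from 4 to 8 hpf. At 4 hpf aplnrb had reached 42.8% of its highest poly(A) level and aplnra 7.58%. Both receptors were highest at 7 hpf in both profiles, with a dip of aplnrb at 6 hpf in each.

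The chemokine receptor gene cxcr4a (ENSDARG00000057633) was present at a low level from fertilization, with 0.48, 0.99, 0.79 and 1.22 TPM from 0 to 3 hpf in poly(A) libraries, followed by 66.7, 145, 137, 104 and 65.0 TPM from 4 to 8 hpf. In Ribo-Zero libraries it had 1.40, 0.82, 0.90 and 1.02 TPM up to 3 hpf and then 35.2, 95.5, 102, 78.2 and 51.6 TPM. Its highest level was at 5 hpf in poly(A) and at 6 hpf in Ribo-Zero libraries, and by 8 hpf it stood at 44.7% and 50.4% of those levels.

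The other chemokine receptor gene, cxcr4b (ENSDARG00000041959), had the largest store before zygotic transcription of the 7 genes. Its poly(A) levels were 2.17, 4.49, 6.94 and 4.50 TPM from 0 to 3 hpf and 65.5, 107, 156, 127 and 36.2 TPM from 4 to 8 hpf. Its Ribo-Zero levels were 4.13, 3.15, 4.26 and 3.39 TPM and then 39.9, 70.7, 97.6, 89.9 and 29.3 TPM. Both profiles peaked at 6 hpf, and by 8 hpf cxcr4b stood at 23.2% of its peak in poly(A) and 30.0% in Ribo-Zero libraries.

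**Figure D1:**
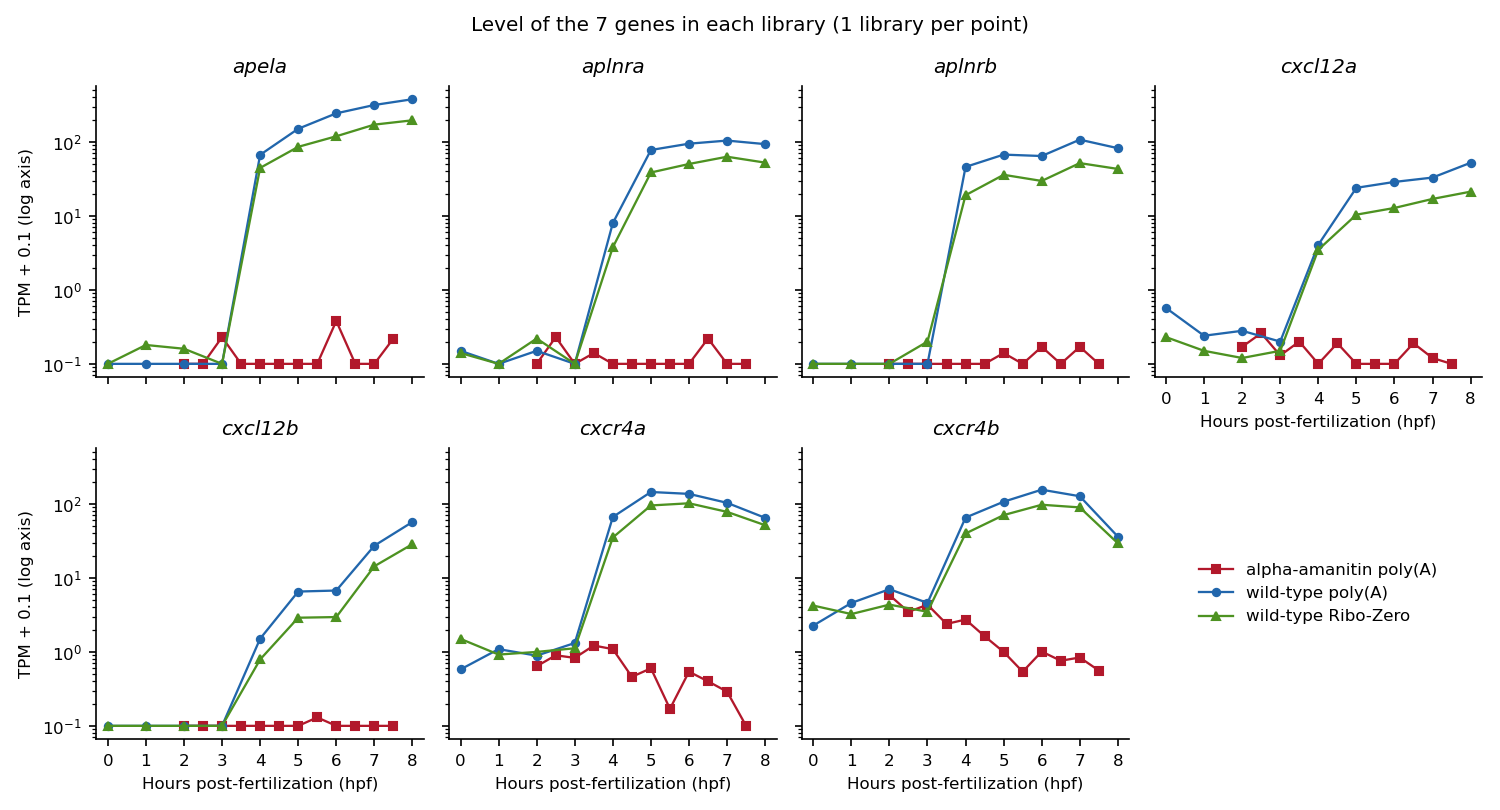
Level of each gene (TPM + 0.1, log axis) against hours post-fertilization in the alpha-amanitin poly(A), wild-type poly(A) and wild-type Ribo-Zero libraries, 1 library per point. Wild-type levels of all 7 genes climb between 3 and 4 hpf, while in alpha-amanitin libraries 5 genes stay at 0.28 TPM or less. In those libraries cxcr4b runs down from its early level, and cxcr4a is lower after 4 hpf than up to that hour.

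The timing of each climb was compared hour by hour, as a step of at least 2-fold on the log2(TPM + 0.1) scale in both wild-type profiles. The 15982 genes compared had a mean of at least 1 TPM over the 18 wild-type libraries. These steps have 1 library on each side in each profile, so they are values with no test, and the comparison was chosen after the values were seen. Between 3 and 4 hpf all 7 genes stepped up, against 8.41% of the genes compared. Most of the 7 met the filter through hours after 3 hpf alone and had to climb to be compared, so this count carries no weight of its own. Between 4 and 5 hpf aplnra, cxcl12a, cxcl12b and cxcr4a stepped up again, against 11% of genes. Of these, aplnra, cxcl12a and cxcl12b met the filter only through hours after 4 hpf, so this count carries no weight of its own either. Between 6 and 7 hpf cxcl12b stepped up, against 4.13% of genes, and between 7 and 8 hpf cxcr4b stepped down, against 2.37% of genes.

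**Figure D2:**
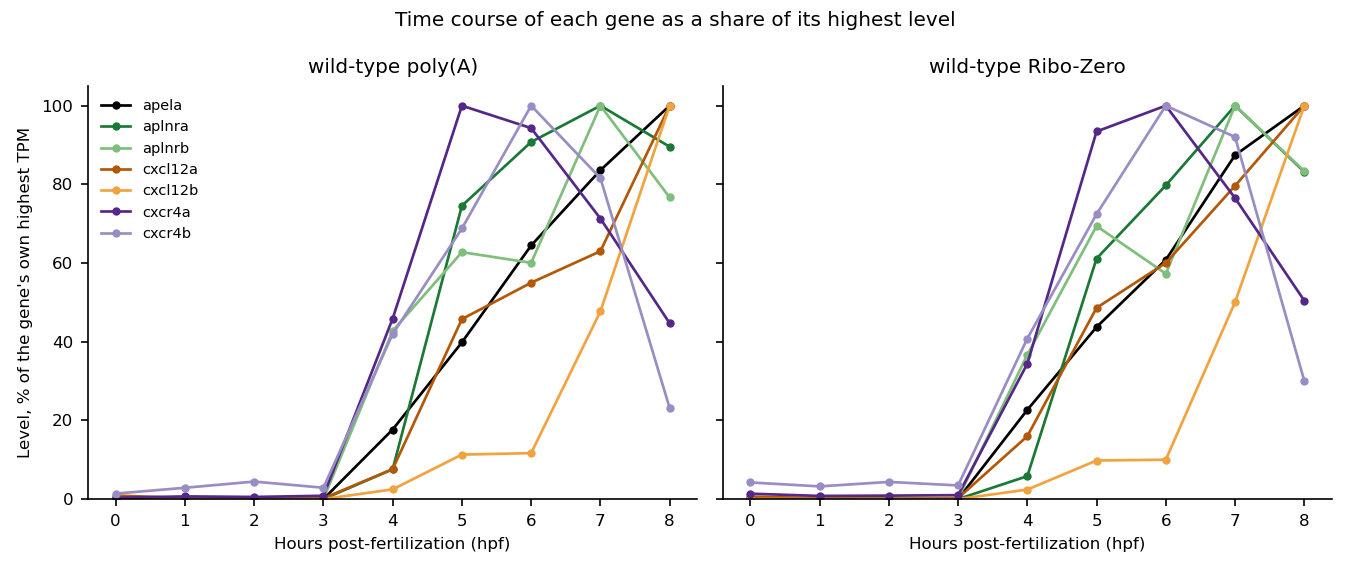
Level of each gene as a percentage of its own highest TPM, against hours post-fertilization, in wild-type poly(A) (left) and wild-type Ribo-Zero (right) libraries. The cxcr4 genes peak at 5 to 6 hpf, the apelin receptors at 7 hpf and the 3 ligands at the last hour, with cxcl12b at 11.7% of its highest poly(A) level at 6 hpf.

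To place the size of the climb against the spread between hours, libraries at 6 to 8 hpf were compared with those at 0 to 2 hpf in each profile. In poly(A) libraries all 7 genes rose, against 35.0% of 15681 genes tested, and the median difference over all genes was 0.30 on the log2(TPM + 0.1) scale. In Ribo-Zero libraries all 7 rose as well, against 24.7% of 15835 genes, with a median over all genes of -1.01. Most of the 7 genes passed the filter on low levels through the later hours alone, so the count of 7 carries no weight of its own and the sizes are given for each gene.

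The ligand apela averaged 313 ± 67.4 TPM at 6 to 8 hpf in poly(A) libraries and was listed at 0 in all 3 libraries at 0 to 2 hpf (SD, n = 3 hours each), with a limma difference of 11.59 ± 0.44 (SE, adjusted p = 1.69e-06). In Ribo-Zero libraries apela averaged 163 ± 39.3 TPM at 6 to 8 hpf and 0.047 ± 0.042 TPM at 0 to 2 hpf, a limma difference of 10.13 ± 0.33 (SE, adjusted p = 2.30e-06). It was the largest fitted difference of the 7 in both profiles, except that with a pseudocount of 0.01 aplnrb stood at 11.98 and apela at 11.97 in Ribo-Zero libraries. Where a gene was at 0 in the early libraries, the fitted difference depends on the 0.1 TPM added before taking logs and is not a fold change.

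The size of the rise of the chemokine ligands depends on the value added before taking logs. The limma difference of cxcl12a was 6.77 ± 0.53 in poly(A) and 6.70 ± 0.38 in Ribo-Zero libraries, and that of cxcl12b was 7.78 ± 0.75 and 6.74 ± 0.78 (SE, highest adjusted p = 0.000158). The apelin receptors followed with 9.54 ± 0.45 and 8.57 ± 0.35 for aplnra and 9.70 ± 0.46 and 8.66 ± 0.31 for aplnrb (limma, SE, highest adjusted p = 3.66e-06).

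The differences of the cxcr4 genes, which had a store from fertilization, were as follows. For cxcr4a the limma difference was 6.88 ± 0.49 in poly(A) and 6.06 ± 0.32 in Ribo-Zero libraries (SE, highest adjusted p = 8.96e-06). For cxcr4b it was 4.42 ± 0.67 and 4.03 ± 0.45 (SE, highest adjusted p = 0.000523), and this gene averaged 107 ± 62.6 TPM at 6 to 8 hpf and 4.53 ± 2.39 TPM at 0 to 2 hpf in poly(A) libraries (SD, n = 3 hours each). All 7 genes also passed the limma test under each of the 11 alternatives tried in either profile, with an adjusted p of at most 0.00678.

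Embryos injected with alpha-amanitin address whether these transcripts come from the zygotic genome. The hours 4, 5, 6 and 7 hpf were shared with wild-type poly(A) libraries after the climb. All 7 genes were lower there in alpha-amanitin embryos (limma, highest adjusted p = 0.000406). Of 16028 genes tested, 21.8% were lower in alpha-amanitin embryos, and the median difference over all genes was 0.40. Of the 7 genes only cxcr4b would have passed the filter on low levels from the alpha-amanitin libraries alone, so each of the other 6 had to be lower to be tested. All 7 were also lower under each alternative tried (limma, highest adjusted p = 0.0135).

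The ligand apela was at 0, 0, 0.28 and 0 TPM at 4, 5, 6 and 7 hpf in alpha-amanitin embryos, against 67.0, 151, 244 and 317 TPM in wild-type embryos. The limma difference was -10.23 ± 0.54 on the log2(TPM + 0.1) scale (SE, adjusted p = 1.60e-05). Across the other 8 alpha-amanitin libraries apela was above 0 in 2, with 0.13 TPM at 3 hpf and 0.12 TPM at 7.5 hpf. The library with 0.28 TPM also held the widest set of mesendoderm and enveloping layer markers, described after the receptors.

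The chemokine gene cxcl12a was at 0, 0, 0 and 0.02 TPM in alpha-amanitin embryos, against 3.98, 23.9, 28.8 and 32.9 TPM in wild-type embryos (limma difference -7.38 ± 0.60, SE, adjusted p = 6.14e-05). Its paralog cxcl12b was listed at 0 at all 4 hours in alpha-amanitin embryos, against 1.41, 6.45, 6.66 and 27.2 TPM in wild-type embryos (limma difference -6.03 ± 0.70, SE, adjusted p = 0.000406). Over all 12 alpha-amanitin libraries cxcl12a did not exceed 0.16 TPM, and cxcl12b was above 0 in 1 library, with 0.03 TPM at 5.5 hpf.

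The receptor gene aplnra was listed at 0 at all 4 hours in alpha-amanitin embryos, against 7.92, 77.9, 94.8 and 104 TPM in wild-type embryos (limma difference -8.96 ± 0.69, SE, adjusted p = 4.63e-05). The level of aplnrb was 0, 0.04, 0.07 and 0.07 TPM in alpha-amanitin embryos, against 46.0, 67.5, 64.6 and 107 TPM in wild-type embryos (limma difference -8.91 ± 0.35, SE, adjusted p = 1.07e-05). Neither apelin receptor exceeded 0.13 TPM in any of the 12 alpha-amanitin libraries.

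The chemokine receptors kept measurable levels in injected embryos. The level of cxcr4a was 0.99, 0.50, 0.44 and 0.19 TPM at 4 to 7 hpf in alpha-amanitin embryos, against 66.7, 145, 137 and 104 TPM in wild-type embryos, so that the wild-type level was 67.3, 291, 311 and 545 times the alpha-amanitin level (limma difference -7.58 ± 0.45, SE, adjusted p = 1.70e-05). The level of cxcr4b was 2.64, 0.90, 0.91 and 0.74 TPM in alpha-amanitin embryos, against 65.5, 107, 156 and 127 TPM in wild-type embryos, 24.8, 119, 171 and 172 times as much (limma difference -6.46 ± 0.47, SE, adjusted p = 3.18e-05). As a ratio, the gap of cxcr4a was thus wider at each later hour, and that of cxcr4b stayed nearly level from 6 to 7 hpf. After 4 hpf the cxcr4a ratios rest on alpha-amanitin levels of 0.50 TPM or less. Libraries between and after these hours had 0.07 TPM at 5.5 hpf and 0 at 7.5 hpf. A widening beyond this scatter near 0 is therefore not shown, and it was not tested.

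**Figure D3:**
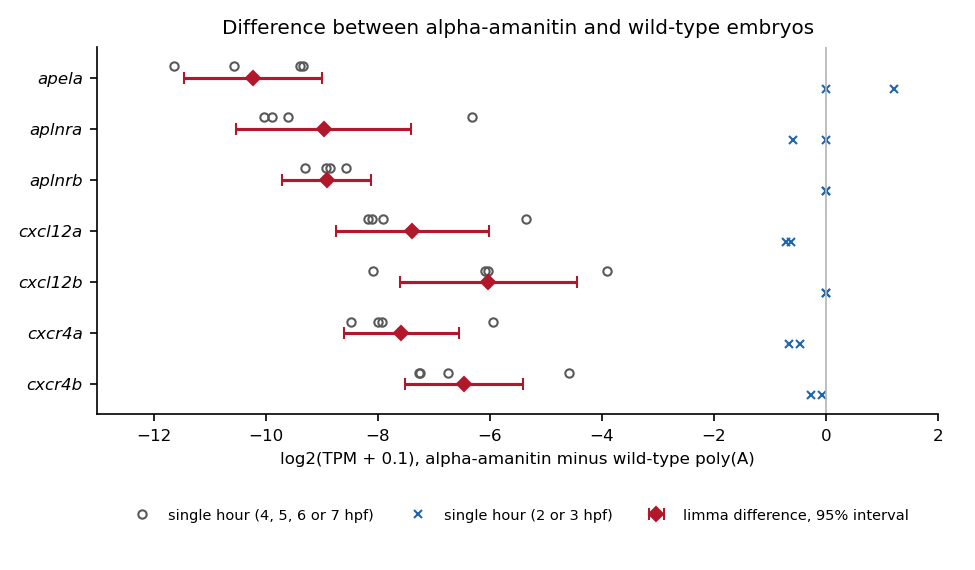
Difference in log2(TPM + 0.1) for each gene, as alpha-amanitin embryos minus poly(A) wild-type embryos; diamonds and bars are the limma estimate over 4 to 7 hpf with its 95% interval, circles are single hours from 4 to 7 hpf and crosses single hours at 2 and 3 hpf. All 7 intervals lie below -4, whereas the crosses lie between -0.72 and 1.20.

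Before the climb the injected and wild-type embryos differed little in the only receptors present. At 2 and 3 hpf cxcr4b had 5.77 and 4.25 TPM in alpha-amanitin embryos, against 6.94 and 4.50 TPM in wild-type poly(A) embryos. At the same hours cxcr4a had 0.54 and 0.73 TPM in alpha-amanitin embryos, against 0.79 and 1.22 TPM in wild-type embryos. These are single libraries and were not tested.

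Marker lists gave the state of the injected embryos. At 4 to 7 hpf all 9 mesendoderm, all 6 enveloping layer and all 4 tested yolk syncytial layer genes were lower in alpha-amanitin embryos. The summed levels of these lists there were 1.61 to 4.59, 0.44 to 2.20 and 0.92 to 1.74 TPM. Most of these genes thus passed the filter on low levels through the wild-type libraries and had to be lower to be tested. Of 6 germ plasm genes 5 were higher, against 3811 of 16028 genes tested. That count over all genes fell to 631 with hour as a factor, so calls of higher genes depend on how hour is handled. After scaling on genes with a maternal supply, 3 germ plasm genes were higher and 4 of 5 tested yolk syncytial layer genes lower. Of all 16117 genes then tested, 1488 were higher and 4866 lower. The alpha-amanitin library at 6 hpf stood apart in the mesendoderm and enveloping layer lists. It had all 9 and all 6 of these genes above 0 TPM, where the other 11 libraries had 1 to 4 and 1 to 5. This library did not stand apart in yolk syncytial layer genes, with 4 of 6 above 0, against 1 to 4 in the others. Their sum was 1.41 TPM, against 0.45 to 1.74 TPM. The summed enveloping layer level of the 6 hpf library was 2.20 TPM, against 0.04 to 1.35 TPM in the others, and its summed mesendoderm level of 2.32 TPM lay within their range of 0.82 to 4.59 TPM. The part of this in the 0.28 TPM of apela was not tested. Without the 6 hpf libraries all 7 genes were still lower in alpha-amanitin embryos.

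With zygotic transcription blocked, the maternal store of cxcr4b ran down between 2 and 5 hpf and stayed at 0.91 TPM or less from then on. Its levels from 2 to 7.5 hpf, at intervals of 0.5 h, were 5.77, 3.38, 4.25, 2.29, 2.64, 1.53, 0.90, 0.44, 0.91, 0.66, 0.74 and 0.46 TPM. The slope of the natural log of TPM + 0.1 was -0.423 per hour (SE 0.0562, 95% interval -0.544 to -0.303, limma, adjusted p = 2.50e-05), a halving every 1.64 h relative to the rest of the library. This halving time is an average over the early fall and the later low levels, and does not describe each part. With a pseudocount of 1 the slope was -0.273 per hour, a halving every 2.54 h, and it passed the limma test under every alternative tried. Of 13977 genes tested, 37.5% had a negative slope past the threshold, and the median slope was -0.0338 per hour. No other gene of the 7 passed the filter on low levels there.

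The levels of cxcr4a in the same libraries were 0.54, 0.80, 0.73, 1.12, 0.99, 0.36, 0.50, 0.07, 0.44, 0.30, 0.19 and 0 TPM. All 5 libraries up to 4 hpf had 0.54 TPM or more, and all 7 later ones 0.50 TPM or less. With no filter on low levels the slope of cxcr4a was -0.315 per hour (SE 0.0832, limma, adjusted p = 0.00845).

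Poly(A) and Ribo-Zero libraries of wild-type embryos show whether the levels depend on how RNA was selected, since poly(A) capture recovers RNA with a poly(A) tail and Ribo-Zero does not require one. At 5 to 8 hpf all 7 genes were higher in poly(A) than in Ribo-Zero libraries (limma, highest adjusted p = 0.0109). The TPM ratios at single hours lay between 1.23 and 2.47. This direction was common, since 46.6% of 15882 genes tested were higher in poly(A) libraries, 10.5% were lower and the median difference was 0.47. The 7 genes fell into a group with differences near 1 and the pair of cxcr4 genes near the median of all genes.

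The apelin system genes had limma differences of 0.92 ± 0.10 for apela, 0.87 ± 0.11 for aplnra and 1.00 ± 0.11 for aplnrb (SE, highest adjusted p = 0.000598). The chemokines had 1.16 ± 0.12 for cxcl12a and 1.07 ± 0.13 for cxcl12b (limma, SE, highest adjusted p = 0.000519). Their receptors had 0.44 ± 0.11 for cxcr4a (limma, SE, adjusted p = 0.0109) and 0.52 ± 0.11 for cxcr4b (limma, SE, adjusted p = 0.00705). When libraries were scaled on genes with a maternal supply, the median over all genes was 0.05 and the differences were 0.00 for cxcr4a (adjusted p = 0.971) and 0.08 for cxcr4b (adjusted p = 0.513), while the other 5 genes kept their calls at smaller differences of 0.48 for apela, 0.43 for aplnra, 0.57 for aplnrb, 0.72 for cxcl12a and 0.64 for cxcl12b (highest adjusted p = 0.0108).

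At 0 to 3 hpf only cxcr4b passed the filter on low levels. It had 2.17, 4.49, 6.94 and 4.50 TPM in poly(A) libraries, against 4.13, 3.15, 4.26 and 3.39 TPM in Ribo-Zero libraries, and these overlapped (limma difference 0.17 ± 0.48, SE, 95% interval -0.89 to 1.24, adjusted p = 0.790). Of 13872 genes tested at these hours, 9.32% were higher in poly(A) libraries and 23.0% were lower, with a median difference of -0.67. This interval is wide on the log2 scale, so equal levels are not shown.

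The climb itself was also compared between the profiles, as the difference between 6 to 8 hpf and 0 to 2 hpf in poly(A) minus the same difference in Ribo-Zero libraries. Of 15902 genes tested, 25.8% climbed more in poly(A) libraries, 2.37% climbed less, and the median was 1.05. Of the 7 genes only apela passed the test (limma difference 1.46 ± 0.49, SE, 95% interval 0.39 to 2.54, adjusted p = 0.0440). That call was lost under 12 of 16 alternatives, with adjusted p-values from 0.0209 to 0.153, and apela was at 0 in the early poly(A) libraries, so its size depends on the 0.1 TPM added. The other 6 genes had differences between 0.07 for cxcl12a and 1.04 for cxcl12b (limma, lowest adjusted p = 0.130).

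The order of levels at 6 to 8 hpf had the ligand apela on top and the chemokines at the bottom in both profiles. In poly(A) libraries apela, at 313 ± 67.4 TPM, was followed by cxcr4b at 107 ± 62.6, cxcr4a at 102 ± 36.1, aplnra at 97.6 ± 5.97, aplnrb at 84.8 ± 21.6, cxcl12a at 38.0 ± 12.6 and cxcl12b at 30.3 ± 25.3 TPM (mean ± SD, n = 3 hours). In Ribo-Zero libraries apela averaged 163 ± 39.3, cxcr4a 77.3 ± 25.3, cxcr4b 72.3 ± 37.4, aplnra 55.3 ± 6.84, aplnrb 41.5 ± 11.15, cxcl12a 16.9 ± 4.24 and cxcl12b 15.2 ± 12.9 TPM. Neighbours in this order overlapped across the 3 hours, except apela with the gene after it and aplnrb with cxcl12a, in both profiles. These are descriptions with no test.

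Ligand and receptor levels were set against each other within each library, a description chosen after the values were seen. The ratio of apela to the sum of aplnra and aplnrb was 1.24, 1.04, 1.53, 1.49 and 2.15 from 4 to 8 hpf in poly(A) libraries and 1.97, 1.15, 1.49, 1.50 and 2.05 in Ribo-Zero libraries. The ligand transcript was thus above its receptors' sum at all of these hours. The sum of both cxcl12 genes over the sum of both cxcr4 genes was 0.0408, 0.120, 0.121, 0.260 and 1.08 in poly(A) libraries and 0.0544, 0.0789, 0.0780, 0.186 and 0.615 in Ribo-Zero libraries. Receptor transcripts of the chemokine system exceeded those of the ligands until 7 hpf in both profiles, and at 8 hpf the ratio was above 1 in poly(A) and below 1 in Ribo-Zero libraries.

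**Figure D4:**
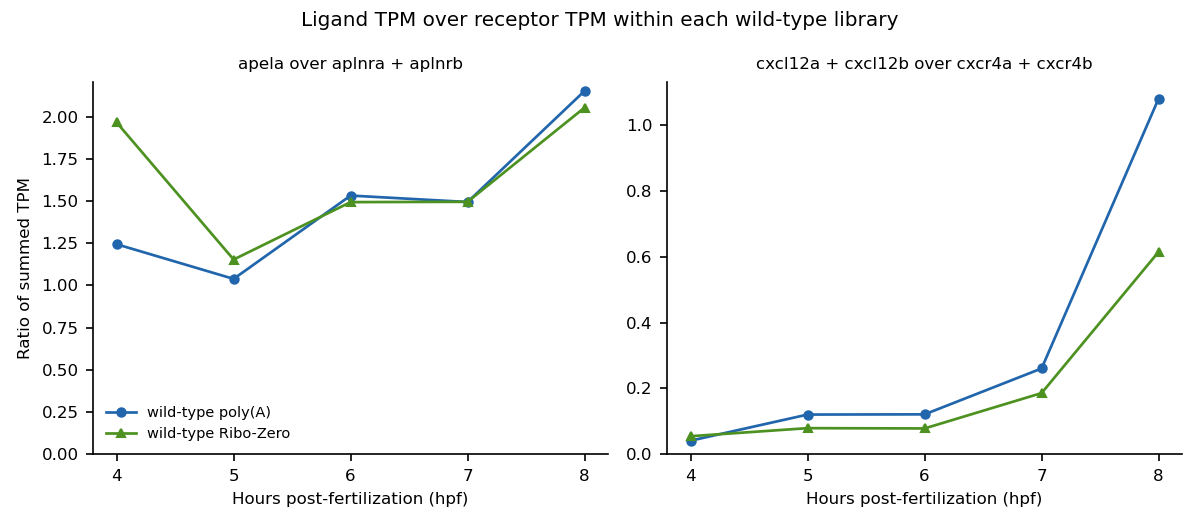
Ratio of summed ligand TPM to summed receptor TPM within each wild-type library against hours post-fertilization, for apela over aplnra + aplnrb (left) and cxcl12a + cxcl12b over cxcr4a + cxcr4b (right), 1 library per point in each profile. The apelin system ratio stays between 1.04 and 2.15, while the chemokine ratio climbs to 1.08 in poly(A) and 0.615 in Ribo-Zero libraries at 8 hpf.

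Paralogs were compared over the 9 wild-type hours with a two-sided exact sign-flip permutation test on log2(TPM + 0.1), for 6 comparisons in all, where the smallest p possible was 0.00391. The mean log2 ratio of cxcl12a over cxcl12b was 1.31 ± 0.84 in poly(A) and 0.95 ± 0.92 in Ribo-Zero libraries (SD, n = 9 hours, exact p = 0.00781 and 0.0156, adjusted p = 0.0469 for both). The first was higher in 8 of 9 hours in each profile, and the exception was 8 hpf, with 52.3 TPM of cxcl12a and 57.0 TPM of cxcl12b in poly(A) and 21.2 and 28.6 TPM in Ribo-Zero libraries. Leaving out 1 hour lost the call for 8 of the 9 hours in each profile, with adjusted p-values up to 0.0938. At 0 to 3 hpf cxcl12a was at 0.47 TPM or less and cxcl12b at 0, so those ratios come from the 0.1 TPM added. Over 4 to 8 hpf alone, a choice made after the values were seen, the mean ratio was 1.11 ± 0.98 in poly(A) and 1.18 ± 1.20 in Ribo-Zero libraries, with cxcl12a higher in 4 of 5 hours in each (SD, n = 5 hours, exact permutation p = 0.125 and 0.188, adjusted p = 0.563 for both), where the smallest p possible was 0.0625. The pair is therefore not shown to differ once both genes are expressed.

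The ratio of aplnra over aplnrb averaged -0.05 ± 0.96 in poly(A) and -0.03 ± 1.04 in Ribo-Zero libraries (SD, n = 9 hours, exact permutation p = 0.984 and 0.953, adjusted p = 0.984 for both). That of cxcr4a over cxcr4b averaged -0.89 ± 1.33 and -0.68 ± 1.09 (SD, n = 9 hours, exact permutation p = 0.0938 and 0.102, adjusted p = 0.152 for both), with cxcr4a lower in 6 of 9 hours in each profile. Over all 9 hours neither pair passed the test. The hours before and after the climb were then taken apart, again after the values were seen. At 0 to 3 hpf cxcr4b was 2.95 to 8.78 times cxcr4a in all 8 wild-type libraries of those hours, with mean ratios of cxcr4a over cxcr4b of -2.21 ± 0.53 in poly(A) and -1.77 ± 0.27 in Ribo-Zero libraries (SD, n = 4 hours, exact permutation p = 0.125 for both, the smallest possible). At 4 to 8 hpf the mean ratios were 0.16 ± 0.47 and 0.19 ± 0.43 (SD, n = 5 hours, exact permutation p = 0.563 and 0.438). For aplnra over aplnrb they were -0.32 ± 1.25 in poly(A) and -0.18 ± 1.23 in Ribo-Zero libraries at 4 to 8 hpf (SD, n = 5 hours). The lowest of these ratios were at 4 hpf, at -2.52 and -2.34. At 0 to 3 hpf aplnra and aplnrb were at 0.12 TPM or less, so their ratios there come from the 0.1 TPM added.

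Other genes of both systems were read from a list of 17, all found in the tables. The scavenger receptor gene ackr3b, whose protein takes up Cxcl12, was at 0.05 TPM or less up to 3 hpf in wild-type embryos and climbed at 4 hpf. It was listed at 0 at 4 to 7 hpf in alpha-amanitin embryos, against 46.6, 53.5, 34.5 and 39.7 TPM in wild-type poly(A) embryos (limma difference -8.75 ± 0.38, SE, adjusted p = 1.07e-05). This gene passed the filter on low levels through the wild-type libraries alone, so it had to be lower to be tested. The gene for apelin itself, apln, the other known ligand of the apelin receptors, did not exceed 0.28 TPM, and ackr3a did not exceed 0.19 TPM, in any library. Of the list, 9 genes were tested in this comparison, 2 were lower and 0 higher in alpha-amanitin embryos at an adjusted p under 0.05, and their median difference was 0.06, against 0.40 over all genes (after scaling on genes with a maternal supply, 3 lower and 0 higher, and medians of -0.63 and -0.33). Over all genes 21.8% were lower, and 4866 of 16117 after scaling, so counts of 2 and 3 of 9 lie near that background. Those higher numbered 3811 of 16028, and 1488 of 16117 after scaling. The other lower gene was gnai1, which encodes an inhibitory G protein alpha subunit (limma difference -5.78 ± 0.98, SE, adjusted p = 0.00319).

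The 2 most abundant genes of the list also encode G protein alpha subunits. The level of gnai2b was 78.0, 64.4, 76.1 and 85.4 TPM at 4 to 7 hpf in alpha-amanitin embryos, against 64.2, 59.6, 36.1 and 13.9 TPM in wild-type poly(A) embryos (limma difference 1.02 ± 0.40, SE, adjusted p = 0.0615). The level of gna13b was 68.0, 95.7, 103 and 85.7 TPM in alpha-amanitin embryos, against 102, 82.5, 57.0 and 77.1 TPM in wild-type embryos (limma difference 0.16 ± 0.26, SE, adjusted p = 0.613). Between 6 to 8 hpf and 0 to 2 hpf, 9 genes of the list were tested, of which 3 were higher and 2 lower at the later hours in poly(A) libraries, and 3 higher and 4 lower in Ribo-Zero libraries. Over all genes 35.0% were higher in poly(A) and 24.7% in Ribo-Zero libraries at those hours, so a count of 3 of 9 lies near that background. Lower genes numbered 4091 of 15681 in poly(A) and 9141 of 15835 in Ribo-Zero libraries, so 2 and 4 of 9 do not exceed it.

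The genes most like each of the 7 over the 18 wild-type libraries were ranked by Pearson's r of log2(TPM + 1), among 12617 genes that reached 10 TPM, as a description. The closest to apela were si:ch211-170d8.2 (r = 0.999), fgfr4 and sox19a, and the closest to aplnrb were CU929070.1 (r = 0.995), apela itself (r = 0.995) and ier2a. For aplnra they were cldne (r = 0.997), which is also on the enveloping layer list, atp1b1a and si:dkeyp-53e4.1. For cxcl12a they were CR788226.3 (r = 0.996), BX470214.1 and si:dkey-48g21.7, and for cxcl12b BX537110.1 (r = 0.993), si:dkey-210i3.1 and zfp36l1b. For cxcr4a they were asb11 (r = 0.997), CR769769.2 and nnr, and for cxcr4b FP102169.1 (r = 0.987), zgc:194330 and si:ch73-160h15.3. Among the 7 genes, r ran from 0.727 for cxcl12b with cxcr4b to 0.995 for apela with aplnrb. The 18 points share the same hours and the same step at 4 hpf, which many genes take.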

How the data were processed

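RNA-seq was analysed in 30 libraries of whole zebrafish embryos. The deposited values are TPM per gene, made by the authors with RSEM after STAR 2.7.3a alignment to danRer11, per the labels and processing notes, with Ensembl gene IDs. TPM keeps no read depth, and each library holds 1 condition and hour. No column was without a sample.

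Groups came from the labels. Values were taken as log2(TPM + 0.1) and tested with limma 3.58.1 in R 4.3.3 (eBayes with trend, Benjamini-Hochberg adjustment over all genes tested, mean TPM of at least 1 in the libraries of the fit, threshold 0.05). Alpha-amanitin and wild-type embryos were compared at 4 to 7 hpf with hour as a numeric covariate. Paralogs were compared by an exact sign-flip test. The code was tested on simulated data. Python 3.11.15 was used for the other steps.

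Alternatives were pseudocounts of 0.01 and 1, no filter, median-of-ratios scaling over genes with a mean Ribo-Zero TPM of at least 5 at 0 and 1 hpf, other windows (4 to 8 hpf for paralogs, chosen after seeing the data), hour as a factor, eBayes without trend, and leaving out each hour or library.

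All 7 genes are named in every comparison. Of other genes, the text names apln, ackr3a, ackr3b and the 2 most abundant of each list, and the 3 most alike to each gene. The gene gnai1, and the gastrulation movement genes wnt11, prickle1b, has2, fzd7a and pdgfra, were named after their values were seen. The 7 genes and the lists (other apelin and Cxcl12 pathway genes, other gastrulation movement genes, mesendoderm, germ plasm, enveloping layer, yolk syncytial layer, maternal egg, mitochondrially encoded) were chosen with earlier results of these data known.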

Additional observations from a re-analysis of the deposited data

Results flagged for a closer look

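The values of 5 gene and profile pairs included 1 hour far from the other 3 in a group of 4 hours, by Dixon's criterion, which chance meets in about 1 group in 20; the hours of a group also follow a time course, so an end of the course can stand apart. In alpha-amanitin embryos at 4 to 7 hpf, apela was at 0.28 TPM at 6 hpf and at 0 at the other hours, cxcl12a was at 0.02 TPM at 7 hpf and at 0 at the other hours, and cxcr4b was at 2.64 TPM at 4 hpf and at 0.91 TPM or less later. With the other 3 hours at 0, any value above 0 meets the criterion, so the rate of 1 in 20 does not hold for apela and cxcl12a there. In wild-type poly(A) embryos, aplnra was lowest at 4 hpf, at 7.92 TPM, and cxcl12a was lowest at 4 hpf, at 3.98 TPM.

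The climb of apela was called as different between library types in the main fit. The difference was 1.46 on the log2(TPM + 0.1) scale in poly(A) relative to Ribo-Zero libraries (limma, adjusted p = 0.0440), with a median of 1.05 over all genes. That call was lost under 12 of 16 alternatives. Since apela was at 0 in the early poly(A) libraries, the size depends on the 0.1 TPM added.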

How the results depend on the processing

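The labels carry no replicate numbers, so no fit with a replicate block was made. Libraries were matched by hour only where poly(A) and Ribo-Zero levels were compared. The main alpha-amanitin fit took hour as a number, and the fits of the climb had no term for hour. Over single genes, 397 values kept their direction and side of the threshold, 13 that passed no test changed sign (12 of them for the climb between library types) and 14 lost the call, 12 of them for the climb of apela between library types. The counts of 7 genes lower in alpha-amanitin, higher at the later hours in each profile, and higher in poly(A) at 5 to 8 hpf did not change when any 1 hour or library was left out. The count of genes whose climb differed between library types was 1, and 0 with a pseudocount of 1, with no filter and with scaling on maternal genes; leaving out 1 library gave 0 to 1. The count with a slope in alpha-amanitin was 1, and 2 with no filter. The ratio of aplnra over aplnrb was 0.39 (poly(A)) and 0.18 (Ribo-Zero) with a pseudocount of 0.01, and leaving out 1 hour gave -0.13 to 0.26 and -0.18 to 0.26. That of cxcl12a over cxcl12b was 0.55 in Ribo-Zero libraries with a pseudocount of 1, which lost the call, and 1.11 (poly(A)) and 1.18 (Ribo-Zero) over 4 to 8 hpf, which lost it too, and leaving out 1 hour gave 1.16 to 1.49 (poly(A)) and 0.80 to 1.12 (Ribo-Zero). That of cxcr4a over cxcr4b was 0.16 and 0.19 over 4 to 8 hpf. The 4 to 8 hpf window was chosen after seeing the data. The cause was not tested.

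Over all genes, 3495 were lower in alpha-amanitin, against 2099 with hour as a factor and 1664, 1211 and 1539 without 5, 6 and 7 hpf. Higher genes numbered 3811, against 631 with hour as a factor and 381, 88 and 288 without 5, 6 and 7 hpf. Calls of higher genes there are thus less stable than calls of lower ones. At the later hours 3912 were higher in Ribo-Zero libraries, against 6419 with no filter and 8333 with scaling. The climb differed for 4487 genes, against 7888 without poly(A) 2 hpf and 2882 without Ribo-Zero 0 hpf. At 0 to 3 hpf 4478 genes differed, against 2345 without 0 hpf and 1782 without 1 hpf. Scaling on maternal genes changed the share of calls that were higher, to 23.4% and not 52.2% in alpha-amanitin, 67.9% and not 30.0% at the later Ribo-Zero hours, 46.2% and not 91.6% for the climb between library types, 54.9% and not 81.6% at 5 to 8 hpf, 50.6% and not 28.9% at 0 to 3 hpf, and 50.2% and not 38.7% for slopes in alpha-amanitin. It moved the median over all genes to -0.33 in alpha-amanitin, 0.70 and 0.75 at the later Ribo-Zero and poly(A) hours, -0.0048 for the climb between library types and -0.06 at 0 to 3 hpf. Read depth is unknown, so levels near 0 TPM carry no detection limit.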

Other observations

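Other genes of gastrulation movements were mixed in alpha-amanitin embryos at 4 to 7 hpf. Of 16 such genes found, 15 were tested, 7 were lower and 1 was higher (limma, adjusted p under 0.05), with a median difference of -0.77 against 0.40 over all genes. Over all genes 21.8% were lower and 3811 of 16028 higher, and with hour as a factor 2099 were lower and 631 higher. After scaling on genes with a maternal supply, 9 of these gastrulation movement genes were lower and 0 higher, with medians of -1.46 and -0.33. Of all 16117 genes then tested, 4866 were lower and 1488 higher. Fewer of these gastrulation movement genes passed the filter on low levels over the alpha-amanitin libraries alone. Those that passed only through the wild-type libraries had to be lower to be tested, so the counts of lower genes carry no weight of their own. The lower gastrulation movement genes included prickle1b (-8.48 ± 0.42), has2 (-8.27 ± 0.55), wnt11 (-7.78 ± 0.71) and fzd7a (-6.74 ± 0.88), where ± is the SE, and the higher one was pdgfra (2.00 ± 0.63), not called after scaling (1.38 ± 0.59, adjusted p = 0.0898). The most abundant 2, cdh1 (0.18 ± 0.22, adjusted p = 0.478) and ptk7a (0.24 ± 0.28, adjusted p = 0.486), did not pass the limma test, and after scaling stood at -0.51 and -0.46 without passing it.

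Among the markers, ta (-9.51 ± 1.15) and tbx16 (-10.30 ± 0.70) of the mesendoderm, krt4 (-9.25 ± 1.16) and krt18 (-12.14 ± 0.86) of the enveloping layer, and apoa1a (-4.75 ± 1.37) and apoa1b (-4.61 ± 1.57) of the yolk syncytial layer were lower in alpha-amanitin embryos. The germ plasm genes buc (4.84 ± 0.93) and ca15b (1.02 ± 0.29) were higher, as was the maternal egg gene cldnd (2.01 ± 0.56), 1 of 2 called among 6 maternal egg genes, and org was not called (0.26 ± 0.34). Over all genes 3811 of 16028 were higher, 631 with hour as a factor, and 1488 of 16117 after scaling. After scaling buc (4.15 ± 0.80) and cldnd (1.32 ± 0.44) were still called and ca15b (0.33 ± 0.20) was not. None of the 3 mitochondrially encoded genes was called by limma, and mt-co1 (0.29 ± 0.15, adjusted p = 0.122) and mt-cyb (0.37 ± 0.16, adjusted p = 0.0897) lay close to the median of all genes, as after scaling (-0.40 and -0.32, against a median of -0.33).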
